A study of Mus musculus with 24 samples.

Results

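The renin-angiotensin genes and peptidases of the kidney were followed through a mouse data set made to measure the error of allele-specific RNA sequencing. The 8 genes, chosen by symbol, were Agt, Ren1, Ace, Agtr1a, Enpep, Mme, Anpep and Klk1, out of 37315 genes in the count table. All 18 kidney libraries were made from aliquots of 1 total RNA preparation from the left kidney of a single adult female F1 mouse of the strains 129S1/SvImJ and CAST/EiJ, labelled control. Experiment 1 comprised 6 libraries made with the NEBNext kit from 100 ng of RNA, Experiment 2 comprised 6 made with the SMARTseq kit from 10 ng, and Experiment 3 comprised 6 made with the SMARTseq kit from 100 pg. The labels also describe Abl.1 and Abl.2, immortalised B cell lines of the same F1 cross, female and labelled control. Each is a single Abelson-transformed clone, with 2 SMARTseq libraries from 10 ng each, and both Abl.2 libraries were sequenced in a second run. The replicates are therefore libraries, not animals or cultures, and no p-value below measures a spread between animals or cultures.

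A level and an allelic share were taken for each gene and library. The level is the sum of the counts of both alleles, scaled to counts per 1000000 allelic counts of the library (CPM). Allelic imbalance (AI) is the share of the maternal column in all allelic counts of a gene. An AI of 0.5 means equal counts in both columns. Levels were not compared between genes, since only reads over SNPs are counted and a longer gene or one with more SNPs gains counts. In the kidney libraries all 12 of 12 imprinted genes with enough counts had their higher counts in the column opposite to its name. The columns are therefore named here only as columns, and the strain behind each was not tested. The clones were not checked in this way.

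Total allelic counts ranged from 6138693 to 6702351 in the kidney libraries and from 19213150 to 22410835 in the clones. Replicate 1 of Experiment 1 stood apart from the other 5, with a QCC (the factor by which AI varied between a pair of libraries beyond counting error) of 2.04 to 2.13 in its pairs against 1.66 to 1.80 in the others. Results that rest on it are given with and without it. The kidney label matched its markers, with 6 of 6 proximal tubule, 4 of 4 podocyte and 2 of 2 thick limb genes at 50 pooled counts or more in each experiment. Adrenal cortex markers summed to 0.302 to 12.2 CPM, with Cyp11b1 and Cyp11b2 at 0. The B lineage markers summed to 6398 to 8350 CPM in the clones, with 8 of 8 genes at 50 pooled counts or more. Genes of the X chromosome have no counts in the kidney table, which leaves Agtr2 and Atp6ap2, among others, without a value there.

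Renin, secreted by juxtaglomerular cells of the afferent arteriole, cuts angiotensinogen, the product of Agt, to release the first angiotensin peptide. Angiotensin-converting enzyme, the product of Ace, trims that peptide to angiotensin II, and the type 1a receptor encoded by Agtr1a carries the effect of angiotensin II on vascular tone and sodium transport. Aminopeptidase A (Enpep), neprilysin (Mme) and aminopeptidase N (Anpep) are membrane peptidases of the proximal tubule brush border that shorten or inactivate angiotensins, kinins and other peptides. Tissue kallikrein (Klk1), made in the connecting tubule, releases kinins from kininogens, and Ace inactivates them.

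In the deposited annotation (GRCm38) Agt lies on the minus strand at chr8:124556534-124569706, Ren1 on the plus strand at chr1:133350510-133360325 and Ace on the plus strand at chr11:105967945-105989964. Agtr1a lies on the plus strand at chr13:30336441-30382867, Enpep on the minus strand at chr3:129269175-129332720 and Mme on the plus strand at chr3:63241537-63386030. Anpep lies on the minus strand at chr7:79821803-79861059 and Klk1 on the plus strand at chr7:44225360-44229618. All 8 are protein-coding, and counts were summed over their merged exons. Counts of Klk1 and Ren1 are less certain than the others. Klk1 is part of a cluster of near-identical Klk1b genes, and 12.1% of the distinct 75-base stretches of its transcripts, the read length in kidney, also occur in transcripts of 7 other Klk1b genes. The same share was 2.82% for Ace, all of it with the overlapping antisense gene Gm11651, 0.222% for Mme and 0 for the other 5 genes. Reads of the overlap with Gm11651 cannot be told apart without strand, but the authors left out regions that belong to more than 1 gene. Whether they left out this overlap was not tested. The longest run shared by Klk1 and its closest neighbour Klk1b5 is 145 bases of coding sequence spliced across exons 3 and 4. It is shown with 15 bases on each side, 5′ to 3′, from GENCODE transcripts on GRCm38, because a read inside it cannot be assigned to 1 gene. The authors kept only uniquely aligned reads, so such a read would be left out. Capitals mark the 6 of 175 bases that differ between both genes (Klk1 at chr7:44228652-44228922, Klk1b5 at chr7:44219734-44220002, plus strand).
Klk1: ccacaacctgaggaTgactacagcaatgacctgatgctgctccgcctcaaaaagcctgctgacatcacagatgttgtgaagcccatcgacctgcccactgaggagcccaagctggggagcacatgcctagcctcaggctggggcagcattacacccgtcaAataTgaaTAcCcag
Klk1b5: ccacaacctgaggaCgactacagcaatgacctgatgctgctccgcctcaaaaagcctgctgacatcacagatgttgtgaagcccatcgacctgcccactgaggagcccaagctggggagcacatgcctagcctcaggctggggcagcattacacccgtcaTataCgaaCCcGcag
For Ren1, mice of the 129S1 strain are known to carry a second renin gene, Ren2, which the reference genome lacks, so its reads could be counted on Ren1. Their share was not tested.

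The first comparison asked how library kit and input together changed the level, from NEBNext at 100 ng (Experiment 1) to SMARTseq at 10 ng (Experiment 2). Kit and input cannot be told apart here. Ren1 and Klk1 rose, and Ace, Mme and Anpep fell, each by more than 2-fold in the edgeR fit. Enpep and Agtr1a fell by less, and the direction of Agt depended on the scaling. All 8 genes passed the test, 3 higher and 5 lower, where 72.7% of all genes tested passed it, 36.3% higher and 36.4% lower. The median absolute change of the 8 genes was 1.11 on the log2 scale, against 0.76 over all 11978 genes. All of these libraries share 1 RNA preparation, so neither the number of cells of a type nor the RNA per cell differed between them.

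**Figure D1:**
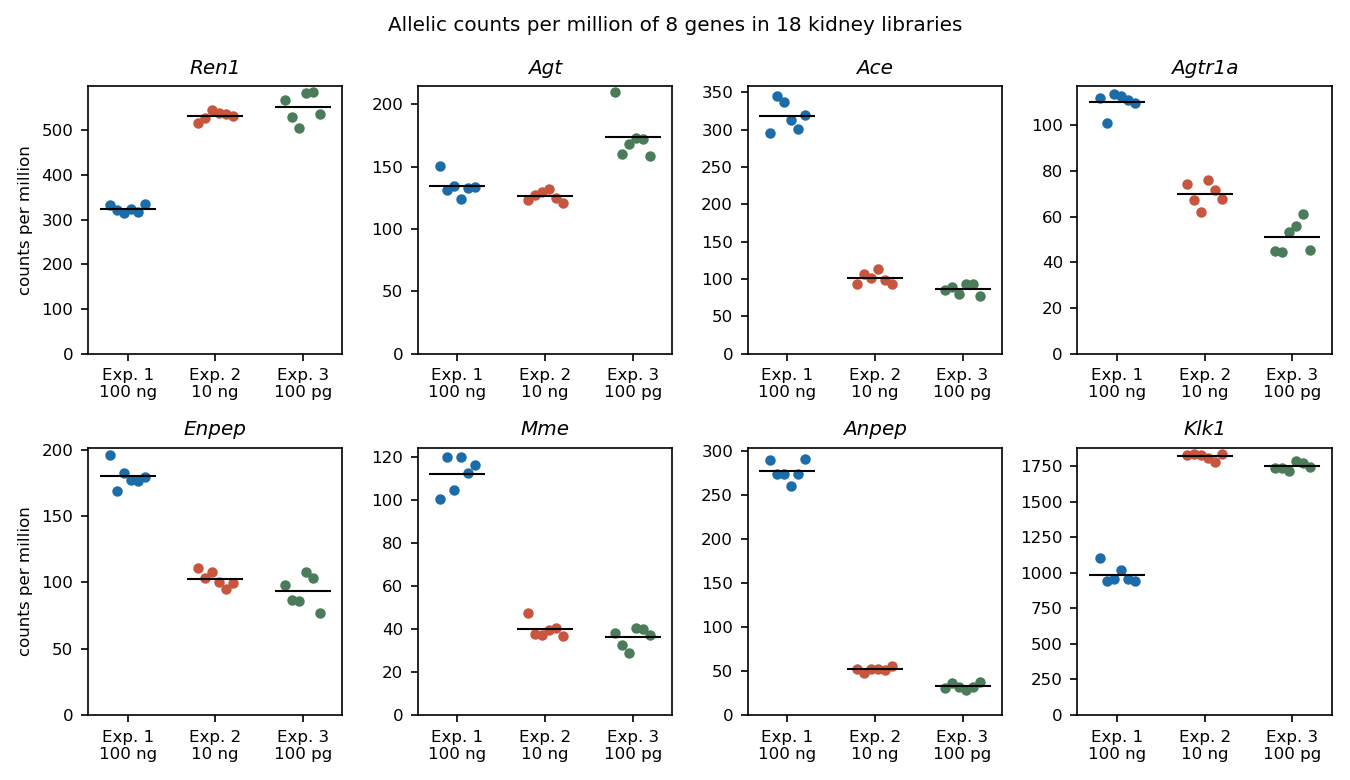
Level in CPM (y axis, linear from 0) of the 8 genes in each kidney library (points), by experiment (x axis, with kit input), with the mean of 6 libraries as a line. Ranges of Experiments 1 and 2 are apart for every gene except Agt, whose levels stand apart in Experiment 3 (159 to 210.3 CPM).

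Agt, which encodes the substrate of renin, had 124 to 150.4 CPM with NEBNext (median 133) against 121 to 132 CPM with SMARTseq at 10 ng (median 126), and these ranges overlapped. In the edgeR fit scaled by TMM it was 1.20-fold higher in Experiment 2 (log2 0.26, SE 0.06, adjusted p = 0.000601). Scaled by library totals only, it was lower by a log2 value of -0.09 (adjusted p = 0.186 by edgeR), so no direction is given. TMM moved the median of all genes in this comparison by 0.35 on the log2 scale, from -0.38 with library totals to -0.04, and the other 7 genes kept their direction under both.

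Ren1 had 314 to 334 CPM with NEBNext (median 323) against 516 to 545 CPM with SMARTseq at 10 ng (median 534). Every library of Experiment 2 was above every library of Experiment 1, and Ren1 rose 2.09-fold in the edgeR fit (log2 1.07, SE 0.04, adjusted p = 1.14e-19). On the CPM scale the ratio of the means was 1.64. Markers of juxtaglomerular and mural cells had a summed level of 266 to 303 CPM with NEBNext against 173 to 212 CPM with SMARTseq at 10 ng, with 2 of 5 genes higher and 3 lower by edgeR. All libraries share 1 RNA preparation, so the mix of cells behind them was the same, and why the markers moved was not tested.

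Ace had 296 to 345 CPM with NEBNext (median 316) against 92.6 to 113 CPM with SMARTseq at 10 ng (median 99.7). Its fall was 2.48-fold (log2 -1.31, SE 0.06, adjusted p = 5.08e-17 by edgeR), with ranges far apart. Agtr1a, the angiotensin II receptor gene, had 101 to 114 CPM with NEBNext (median 111) against 61.8 to 75.9 CPM with SMARTseq at 10 ng (median 69.6). It fell 1.24-fold by edgeR (log2 -0.31, SE 0.08, adjusted p = 0.000796), and the ranges were again apart.

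The 3 brush border peptidases among the 8 genes all fell, to different extents. Of the 12 other kidney peptidases tested, 4 rose and 5 fell. Enpep had 169 to 196 CPM with NEBNext (median 178) against 95.2 to 111 CPM with SMARTseq at 10 ng (median 102), a 1.38-fold fall (log2 -0.46, SE 0.07, adjusted p = 1.12e-06 by edgeR). Mme had 101 to 120.0 CPM with NEBNext (median 115) against 36.8 to 47.5 CPM with SMARTseq at 10 ng (median 38.5), a 2.22-fold fall (log2 -1.15, SE 0.08, adjusted p = 2.61e-12 by edgeR). Anpep had the largest change of the 8 genes, with 261 to 291 CPM with NEBNext (median 274) against 48.1 to 55.7 CPM with SMARTseq at 10 ng (median 52.0), a 4.20-fold fall (log2 -2.07, SE 0.06, adjusted p = 5.65e-21 by edgeR). No library of Experiment 2 reached the lowest of Experiment 1 for any of these 3 peptidases. The 6 proximal tubule markers also fell, all 6 by edgeR, and their summed level was 16372 to 17860 CPM with NEBNext against 8969 to 9113 CPM with SMARTseq at 10 ng. These libraries come from the same RNA and so the same cells, and why the markers moved was not tested.

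Klk1 rose, with 941 to 1103 CPM with NEBNext (median 957) against 1782 to 1837 CPM with SMARTseq at 10 ng (median 1830.0). The rise was 2.34-fold in the edgeR fit (log2 1.23, SE 0.03, adjusted p = 1.19e-21), with no overlap. Of the distal and connecting tubule markers, 1 rose and 1 fell by edgeR, their summed level was 1267 to 1362 CPM with NEBNext against 772 to 800 CPM with SMARTseq at 10 ng, and Pvalb was at 0. CPM ranges were apart for 7 of the 8 genes, as they were for 63.5% of all genes tested. Without replicate 1 of Experiment 1 all 8 genes passed the test, 3 higher and 5 lower.

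The second comparison lowered the input with the SMARTseq kit unchanged, from 10 ng (Experiment 2) to 100 pg (Experiment 3). Agt rose, and Anpep, Agtr1a and Ace fell, so that 4 of the 8 genes passed the test, 1 higher and 3 lower, where 16.4% of all genes did, 9.58% higher and 6.86% lower. Ren1, Klk1, Enpep and Mme did not pass it. Both comparisons share the libraries of Experiment 2, so their changes are given side by side without a relation between them.

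Agt ranged from 159 to 210.3 CPM in Experiment 3 (median 170.5), with each library above all of Experiment 2, and rose 1.37-fold (log2 0.46, SE 0.06, adjusted p = 4.02e-06 by edgeR). Anpep ranged from 28.0 to 37.6 CPM (median 32.1) and fell 1.58-fold (log2 -0.66, SE 0.07, adjusted p = 4.71e-08 by edgeR), below all libraries of Experiment 2. Agtr1a ranged from 44.6 to 61.2 CPM (median 49.4) and fell 1.37-fold (log2 -0.46, SE 0.08, adjusted p = 0.000135 by edgeR). Its highest library lay just under the lowest of Experiment 2. Ace ranged from 76.6 to 93.7 CPM (median 87.2) and fell 1.17-fold (log2 -0.22, SE 0.06, adjusted p = 0.0108 by edgeR), with overlapping ranges. CPM ranges were apart for 3 of the 8 genes and for 8.99% of all genes tested. Of the 6 proximal tubule markers, 4 rose and 0 fell by edgeR from Experiment 2 to Experiment 3 (median log2 change 0.20), while Anpep fell. The summed level of these markers was 8969 to 9113 CPM in Experiment 2 against 10205 to 10896 CPM in Experiment 3. Why Anpep and the markers moved in opposite directions was not tested.

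For the other 4 genes the values were close to those at 10 ng. Ren1 ranged from 505 to 585 CPM (median 552, log2 change 0.05, SE 0.04) and Klk1 from 1719 to 1786 CPM (median 1742, log2 change -0.06, SE 0.03). The adjusted p by edgeR was 0.438 for Ren1 and 0.257 for Klk1. Enpep ranged from 77.1 to 108 CPM (median 92.3, log2 change -0.14, SE 0.07) and Mme from 29.0 to 40.4 CPM (median 37.6, log2 change -0.14, SE 0.09). The adjusted p by edgeR was 0.185 for Enpep and 0.331 for Mme. For Klk1 the exact permutation test over the libraries, two-sided and unadjusted, gave p = 0.00433 for the CPM, with means of 1820.3 CPM at 10 ng and 1749 CPM at 100 pg.

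Allelic imbalance was then set against equal expression of both columns, in each experiment on pooled counts. Agt and Enpep had more counts in the maternal column in all 18 libraries. Their pooled AI in Experiments 1, 2 and 3 was 0.853, 0.829 and 0.853 for Agt and 0.683, 0.686 and 0.635 for Enpep. The other 6 genes lay between 0.443 and 0.648. Of these, Anpep passed the proportional test in no experiment and the others in some experiments only. With NEBNext 5 of the 8 genes passed it, all toward the maternal column, where 13.3% of all genes passed, 6.96% toward that column. With SMARTseq at 10 ng 5 passed, 4 toward the maternal column and 1 toward the paternal, where 18.3% of all genes did, 9.76% and 8.51%. At 100 pg 4 passed, 3 and 1, where 9.72% of all genes did, 5.06% and 4.66%. The test divided the pooled counts by the square of the QCC, on average 1.85, 1.47 and 2.59 in these experiments. This factor is the same for every gene of an experiment, so a gene's own spread between libraries, given below, does not enter the test.

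**Figure D2:**
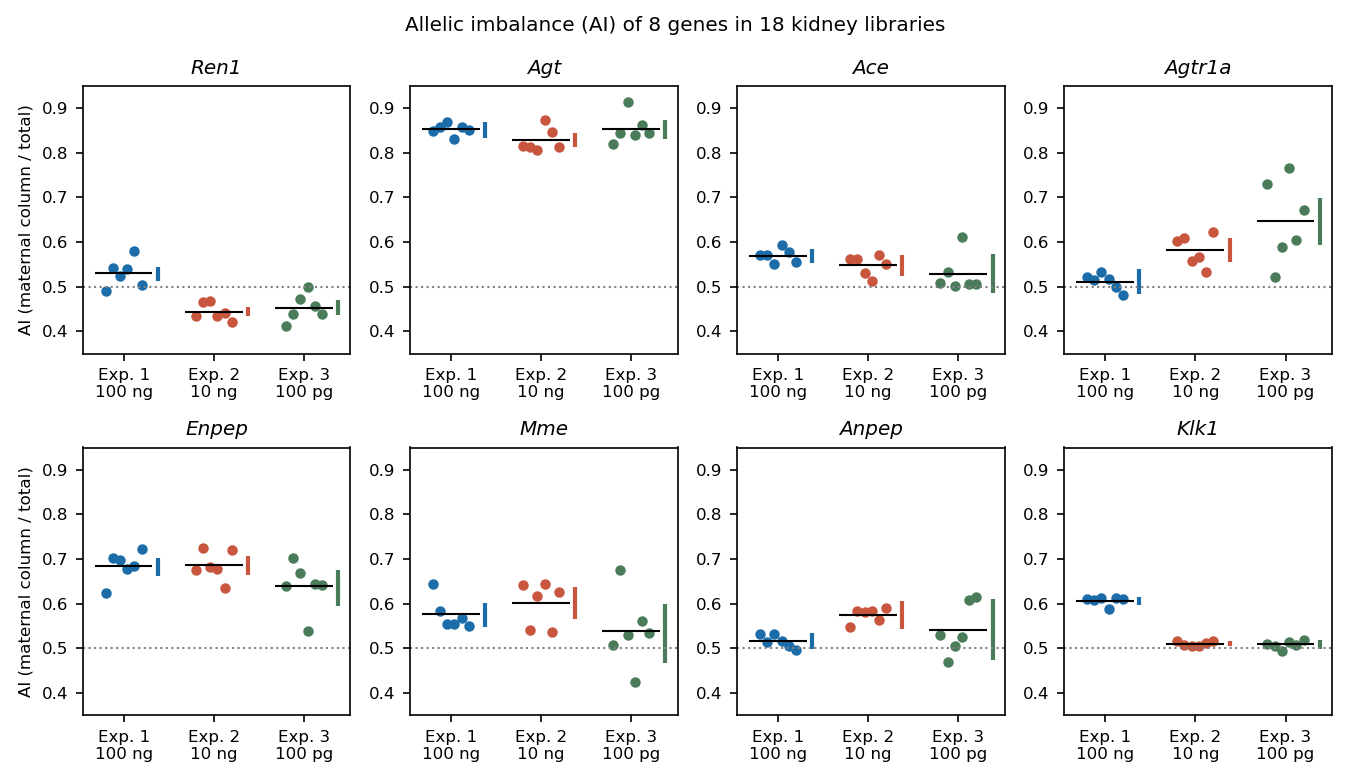
AI (y axis, counts in the maternal column over total counts) of the 8 genes in each kidney library (points), by experiment (x axis, with kit input), with the mean of 6 libraries as a black line, the QCC-corrected 95% interval of the pooled AI as a vertical bar and an AI of 0.5 as a dotted line. Agt sits between 0.807 and 0.914 throughout, Klk1 drops from about 0.607 to 0.510 between the kits, and the points of Agtr1a spread out to 0.522 to 0.766 in Experiment 3.

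The AI of Agt spanned 0.832 to 0.870 with NEBNext (median 0.854), 0.807 to 0.874 with SMARTseq at 10 ng (median 0.815) and 0.820 to 0.914 at 100 pg (median 0.845). All 3 ranges overlapped. The pooled AI passed the test with adjusted p = 5.01e-161, 1.85e-209 and 1.18e-109 in turn. The QCC-corrected 95% intervals were 0.834 to 0.870, 0.813 to 0.844 and 0.830 to 0.874.

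The AI of Enpep spanned 0.624 to 0.723 with NEBNext (median 0.690), 0.634 to 0.725 with SMARTseq at 10 ng (median 0.680) and 0.538 to 0.701 at 100 pg (median 0.643). The lowest value of all was replicate 4 of Experiment 3. The pooled AI passed the test with adjusted p = 2.74e-56, 4.94e-53 and 3.08e-06. Neither kit nor input moved it beyond the spread of the libraries, as given below.

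Ren1 lay on different sides of 0.5 in the 2 kits. Its AI spanned 0.490 to 0.579 with NEBNext (median 0.531), with 5 of 6 libraries above 0.5, 0.420 to 0.467 with SMARTseq at 10 ng (median 0.437) and 0.412 to 0.499 at 100 pg (median 0.447). The pooled AI of 0.528 did not pass the test in Experiment 1 (adjusted p = 1), and those of 0.443 and 0.453 passed it in Experiments 2 and 3 (adjusted p = 4.13e-24 and 0.000874). The call in Experiment 3 was lost without its replicate 1, at a pooled AI of 0.461 (adjusted p = 0.766).

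Klk1 had an AI of 0.588 to 0.612 with NEBNext (median 0.611), of 0.505 to 0.516 with SMARTseq at 10 ng (median 0.508) and of 0.494 to 0.518 at 100 pg (median 0.509). Only the pooled AI of Experiment 1, 0.607, passed the test (adjusted p = 2.04e-107). Those of 0.510 and 0.508 in the SMARTseq libraries rest on 69753 and 69366 counts and did not (adjusted p = 1 in both).

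Ace had an AI of 0.550 to 0.593 with NEBNext (median 0.571), of 0.512 to 0.572 with SMARTseq at 10 ng (median 0.556) and of 0.501 to 0.611 at 100 pg (median 0.508). All 18 libraries were above 0.5, yet only the pooled AI of Experiment 1, 0.569, passed the test (adjusted p = 2.17e-12). The values of 0.547 and 0.529 rest on fewer counts, 3865 and 3429 against 12136, and did not pass (adjusted p = 0.845 and 1).

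Agtr1a had an AI of 0.480 to 0.534 with NEBNext (median 0.517), of 0.534 to 0.624 with SMARTseq at 10 ng (median 0.585) and of 0.522 to 0.766 at 100 pg (median 0.638). The pooled AI was 0.512, 0.582 and 0.648, and the latter 2 passed the test (adjusted p = 0.000113 and 0.00413). The call in Experiment 3 was lost without replicate 1, 4 or 6, with a pooled AI of 0.634, 0.622 or 0.644.

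Mme had an AI of 0.550 to 0.644 with NEBNext (median 0.561), of 0.537 to 0.643 with SMARTseq at 10 ng (median 0.622) and of 0.423 to 0.674 at 100 pg (median 0.532). The pooled AI of 0.575 and 0.602 passed in Experiments 1 and 2 (adjusted p = 0.00167 and 0.000769), and that of 0.534 in Experiment 3 did not (adjusted p = 1). Without replicate 1 of Experiment 1 the value there was 0.562 (adjusted p = 0.254) and without replicate 2 it was 0.573 (adjusted p = 0.0533). In Experiment 2 the call was lost without replicate 1 or 4, at 0.592 and 0.594. Anpep did not pass in any experiment, with a pooled AI of 0.516, 0.575 and 0.543, and its AI spanned 0.496 to 0.531 with NEBNext (median 0.515), 0.548 to 0.590 with SMARTseq at 10 ng (median 0.581) and 0.469 to 0.614 at 100 pg (median 0.527). Without replicate 1 of Experiment 1, Agt, Ace, Enpep and Klk1 still passed there.

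The AI of the 2 kits was compared by edgeR on both alleles with a term for each library. The change in Klk1 was the largest of the 8 genes, and Ren1 moved the same way, toward the paternal column in the SMARTseq libraries. Agtr1a and Anpep moved toward the maternal column. These 4 of 8 genes passed the test, 2 in each direction, where 10.6% of all 10127 genes did, 5.61% toward the maternal column and 4.95% toward the paternal.

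The AI of Klk1 averaged 0.607 ± 0.009 (SD, n = 6) with NEBNext and 0.510 ± 0.005 with SMARTseq at 10 ng. The log2 odds of the maternal column changed by -0.57 (SE 0.03, edgeR adjusted p = 3.04e-14). Its paralog Klk1b22 had the higher counts in the maternal column too, with a pooled AI of 0.983 in Experiment 1 and 0.922 in Experiment 2, while Klk1b5, which shares the run shown above, had 0.674 and 0.491 from 221 and 281 counts and did not pass the test (log2 odds -1.13, SE 0.43, edgeR adjusted p = 0.102). That of Ren1 averaged 0.529 ± 0.031 and 0.443 ± 0.019, a change in log2 odds of -0.50 (SE 0.07, edgeR adjusted p = 4.13e-06). Agtr1a had 0.511 ± 0.019 and 0.582 ± 0.035, a change of 0.41 (SE 0.11, edgeR adjusted p = 0.0139). Anpep had 0.515 ± 0.014 and 0.575 ± 0.016, a change of 0.34 (SE 0.09, edgeR adjusted p = 0.00665). The ranges of AI did not overlap for these 4 genes, as for 6.32% of all genes tested, and the exact permutation test over the libraries gave its smallest possible two-sided p, 0.00216, for each.

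The other 4 genes did not pass. The change in log2 odds was -0.26 for Agt (SE 0.12, edgeR adjusted p = 0.197), -0.13 for Ace (SE 0.08, edgeR adjusted p = 0.371), 0.01 for Enpep (SE 0.11, edgeR adjusted p = 0.972) and 0.16 for Mme (SE 0.14, edgeR adjusted p = 0.584). Agt passed without replicate 4 of Experiment 2, its highest library there, with -0.35 and an adjusted p of 0.0390 by edgeR. Without replicate 1 of Experiment 1 the same 4 genes passed, with -0.57 for Klk1, -0.54 for Ren1, 0.42 for Agtr1a and 0.36 for Anpep.

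**Figure D3:**
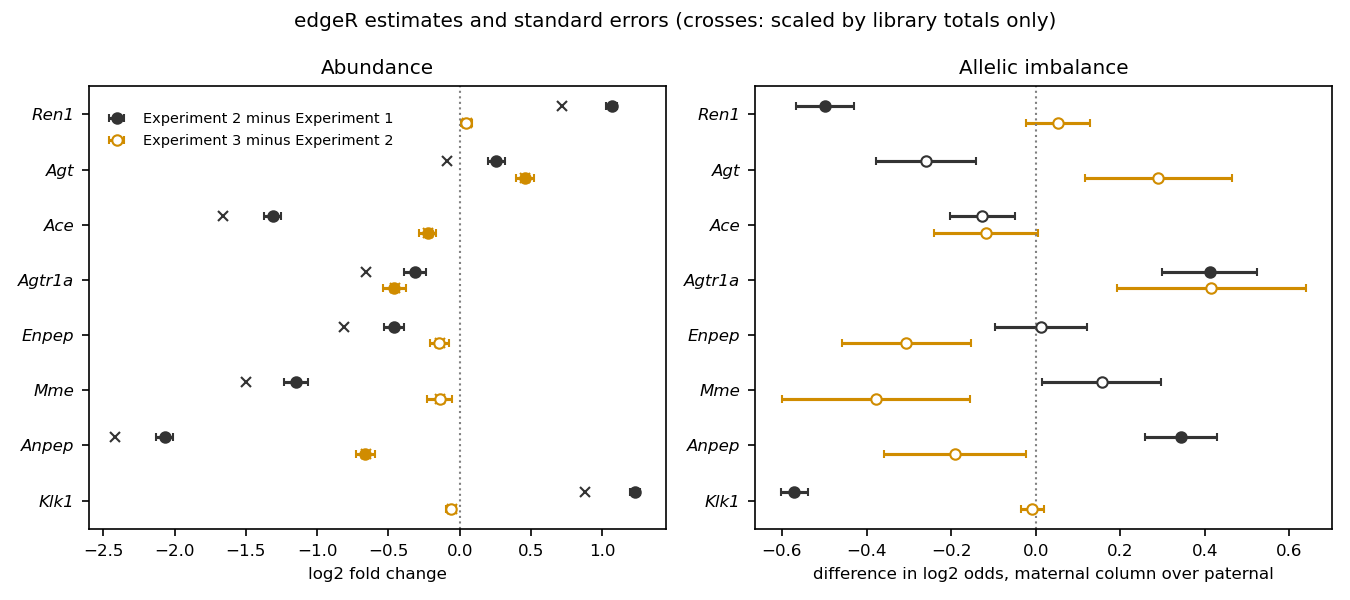
edgeR estimates with standard errors for the 8 genes (y axis), as log2 fold changes of the level (left) and differences in log2 odds of the maternal over the paternal column (right), for Experiment 2 minus Experiment 1 (dark) and Experiment 3 minus Experiment 2 (orange). Filled points passed the test, crosses show levels scaled by library totals only. Between the kits Klk1 and Ren1 lie at the right for level and at the left for AI, while no AI difference between inputs passed.

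Between the inputs of 10 ng and 100 pg, 0 of the 8 genes passed the AI test by edgeR, with 0 at an unadjusted p under 0.05 and 0 by DESeq2 or limma, where 0.659% of all 10020 genes passed by edgeR, 0.319% and 0.339% toward the maternal and paternal column. Over all genes 817 had an unadjusted p under 0.05, and DESeq2 called 89. The largest differences in log2 odds were 0.42 for Agtr1a (SE 0.22, edgeR adjusted p = 0.679), -0.38 for Mme (SE 0.22, edgeR adjusted p = 0.731) and -0.31 for Enpep (SE 0.15, edgeR adjusted p = 0.640). Their standard errors were larger than in the kit comparison. The difference in Klk1, by contrast, was measured to within an SE of 0.03, at -0.01 (edgeR adjusted p = 0.985). AI ranges overlapped for all 8 genes, and were apart for 1.16% of all genes tested.

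The spread of AI over the 6 libraries was largest at the lowest input for each of the 8 genes when set against the binomial SD of their counts. Reads over several SNPs are counted at each, so counting error alone can give a ratio above 1, which was not tested by gene. Over the 8 genes this ratio was 1.01 to 2.84 with NEBNext (median 1.47), 0.576 to 2.21 with SMARTseq at 10 ng (median 1.54) and 1.71 to 3.68 at 100 pg (median 2.65). The median over all genes with at least 10 counts in every library was 1.65, 1.31 and 2.17. Over genes averaging 200 counts or more per library it was 1.72, 1.35 and 2.34. Ren1 had the highest ratio of the 8 in every experiment, 2.84, 2.21 and 3.68, and Anpep in Experiment 2 was the sole value below 1. Agtr1a went from 1.01 and 1.48 to 3.51 at 100 pg, where its AI had an SD of 0.092 over the libraries.

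**Figure D4:**
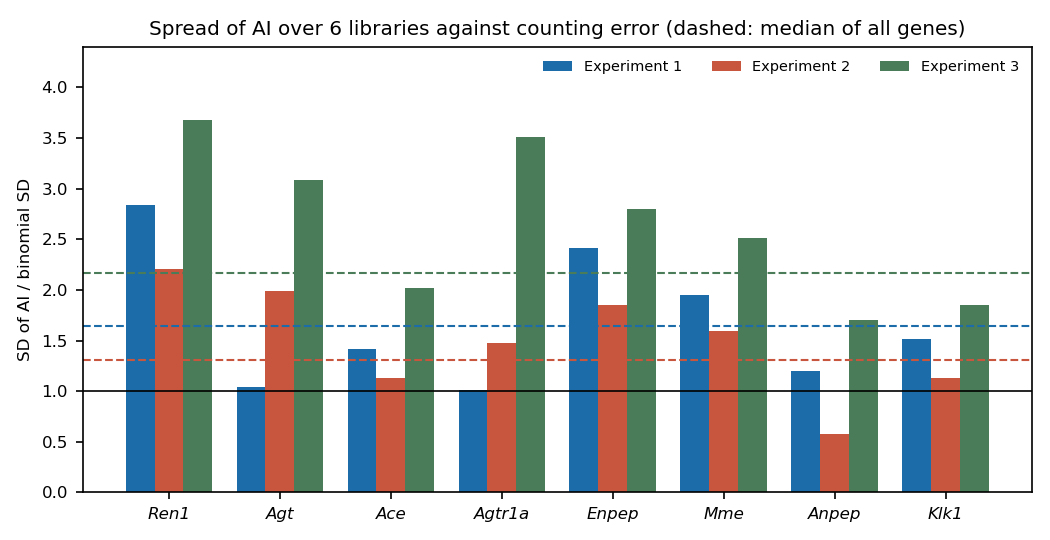
SD of AI over 6 libraries divided by the mean binomial SD of their counts (y axis, from 0) for the 8 genes, by experiment (bars). The solid line marks a ratio of 1, counting error alone if each count is a separate read. Dashed lines mark the median of all genes in the experiment of the same colour. Each gene has its tallest bar in Experiment 3.

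The coefficient of variation of the CPM was 2.39% to 7.20% with NEBNext, 1.20% to 10.1% with SMARTseq at 10 ng and 1.40% to 13.6% at 100 pg, with the lowest value in Ren1 in Experiment 1 and in Klk1 in the others. Over all genes averaging 200 counts or more per library the median was 8.25%, 5.75% and 9.94%.

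Other genes of both pathways came from a list of 34 renin-angiotensin and kallikrein-kinin genes and a list of 14 kidney peptidases, of which 17 and 12 had at least 50 pooled counts in an experiment. Between the kits 5 of 14 genes tested of the first list rose in level and 6 fell, with a median log2 change of -0.23, and of 12 peptidases 4 rose and 5 fell, with a median of -0.08. Of all genes 36.3% rose and 36.4% fell. With library totals only, these counts were 3 and 9, and 1 and 8, with the sign turned, among the genes called, for Kng2 and Acy1. Kng1, a kininogen gene and so a substrate of Klk1, rose 2.13-fold (log2 1.09, SE 0.04, adjusted p = 3.39e-18 by edgeR), and Klk1b27 rose 2.79-fold from 50 to 111 pooled counts (adjusted p = 0.00329 by edgeR). Thop1, thimet oligopeptidase, fell 3.01-fold (adjusted p = 1.79e-08 by edgeR). The kinin receptor gene Bdkrb2 had 146 pooled counts with NEBNext, 1 with SMARTseq at 10 ng and 40 at 100 pg, too few for a fold. Among the peptidases Acy3 rose 1.71-fold and Dpep1 1.31-fold, while St14, matriptase, fell 2.28-fold and Mep1a, a meprin subunit of the brush border, fell 1.65-fold.

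Between the inputs 3 of the 14 genes rose in level and 1 fell, and of the 12 peptidases 3 rose and 4 fell, where 9.58% of all genes rose and 6.86% fell. Rnpep, aminopeptidase B, rose 1.44-fold (adjusted p = 0.00112 by edgeR), and Kng1 fell 1.09-fold (adjusted p = 0.0391 by edgeR). Acy1 rose 1.40-fold and St14 1.29-fold, and Dpp4 fell 1.43-fold and Prss8 1.15-fold (adjusted p = 6.96e-12, 0.00132, 0.0454 and 0.000105 by edgeR).

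AI of the lists passed the kit test for 2 of 11 genes and for 4 of 12 peptidases, where 10.6% of all genes did. The kininogen gene Kng2 stood out, with an AI of 0.479 to 0.502 with NEBNext, 0.709 to 0.745 with SMARTseq at 10 ng and 0.609 to 0.656 at 100 pg. The change in log2 odds was 1.45 between the kits (SE 0.04, edgeR adjusted p = 1.51e-21) and -0.59 between the inputs (SE 0.05, edgeR adjusted p = 8.32e-06), with no overlap in either. Klk1b22 changed by -2.29 between the kits (SE 0.25, edgeR adjusted p = 9.69e-08). Kininogens and Klk1b genes have near-identical copies, and the authors kept only uniquely aligned reads. The part of this in the AI of these genes was not tested. Acy1 moved from a pooled AI of 0.423 to 0.466 and back to 0.429, and passed both tests (edgeR adjusted p = 0.000197 and 0.0252). Acy3 moved by 0.14 and Prss8 by -0.14 in log2 odds between the kits (edgeR adjusted p = 0.000788 and 0.00699). Kng2 and Acy1 were the genes of both lists that passed the input test.

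In the clones 1 of the 8 genes was well detected. The libraries of Abl.1 differed more from each other than those of Abl.2, with a chi-square per gene of 101 against 9.95, and the part of this in the clone comparisons was not tested. Enpep, known in mice as the BP-1 antigen of early B lineage cells, had 1450 and 2814 counts in the libraries of Abl.1 and 4352 and 4115 in those of Abl.2. Ace, Agtr1a, Mme and Klk1 had 0 counts in all 6 sequencing runs, Agt had 1 count in a single Abl.1 library, and Anpep had 6 in the second run of an Abl.2 library. Ren1 had 9 counts in replicate 2 of Abl.2 and 0 in the other first-run libraries. A count of 0 allows up to 3 counts, or 0.140 CPM in the shallowest Abl.2 library, and covers counting error only.

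**Figure D5:**
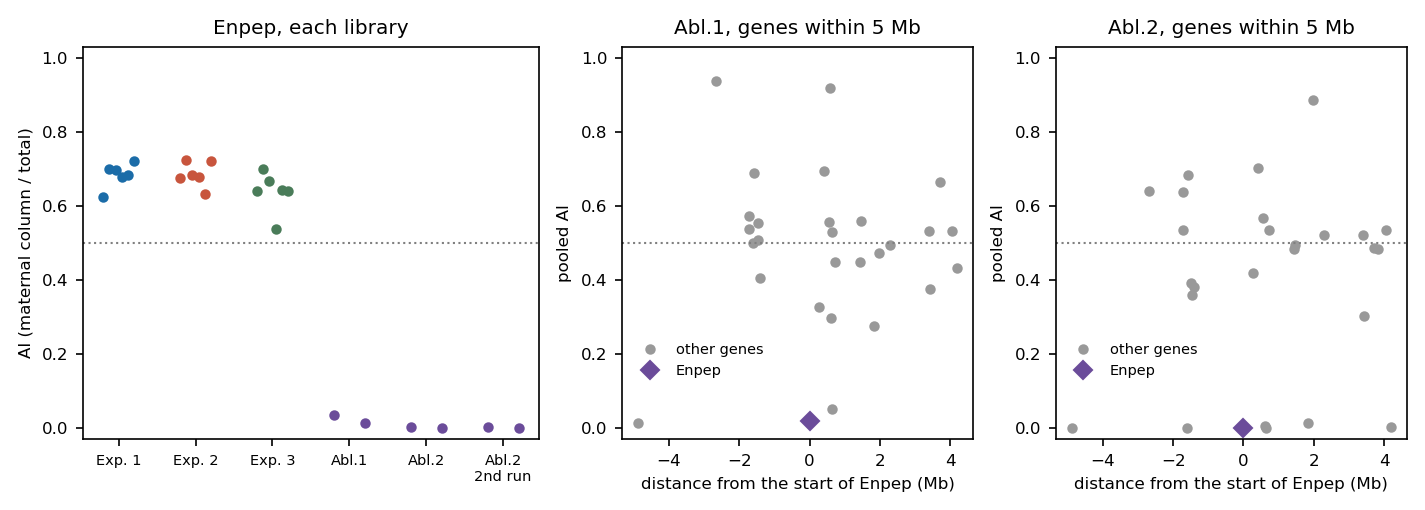
Left, AI (y axis) of Enpep in each kidney and clone library (points, groups on the x axis). Middle and right, pooled AI of Enpep (diamond) and of other genes with at least 50 pooled counts (grey points) against distance from the start of Enpep in Mb, in Abl.1 and Abl.2. The Enpep points of the kidney lie between 0.538 and 0.725 and those of the clones at 0.0338 or less. The neighbours have a median of 0.508 in Abl.1 and 0.486 in Abl.2, with 2 of 27 and 6 of 26 below 0.1.

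By column name, the higher counts of Enpep in the clones were on the side opposite to the kidney. Whether a column stands for the same strain in the clones and the kidney was not tested. The maternal column held 49 of 1450 and 37 of 2814 counts in Abl.1, an AI of 0.0338 and 0.0131, and 6 of 4352 and 2 of 4115 counts in Abl.2, an AI of 0.00138 and 0.000486. In the kidney the column named maternal held the larger share in all 18 libraries. The second run of Abl.2 gave 11 of 4471 and 2 of 4012 counts. Other genes within 5 Mb of Enpep had a median AI of 0.508 in Abl.1 (27 genes) and 0.486 in Abl.2 (26 genes). In that window 2 of 27 genes had an AI below 0.1 in Abl.1, where 766 of 10654 did over the genome, and 6 of 26 in Abl.2, where 763 of 10598 did. An AI above 0.9 was found for 2 of 27 in Abl.1, where 487 of 10654 genes had one over the genome. In Abl.2 it was found for 0 of 26, where 1081 of 10598 genes had one. These shares were not tested.

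Between the clones the AI of Enpep differed, with a change in log2 odds of -4.46 from Abl.1 to Abl.2 (SE 0.66, edgeR adjusted p = 0.00146), where 26.4% of all 10068 genes passed, 14.2% toward the maternal column and 12.2% toward the paternal. It rests on 86 and 8 counts in the maternal column, and over the alternatives it lay between -5.70 and -3.78 (adjusted p 8.90e-05 to 0.0360 by the tools of each). The level of Enpep was 75.5 and 127 CPM in Abl.1 and 204 and 186 CPM in Abl.2, without overlap, and did not pass the test, at 1.53-fold higher in Abl.2 (log2 0.61, SE 0.24, unadjusted p = 0.0423, adjusted p = 0.0802 by edgeR), where 46.2% of all genes did, 21.6% higher and 24.5% lower in Abl.2. It passed without replicate 1 of Abl.1 (log2 0.34) or replicate 2 (0.93), where the lone library was assumed to vary like Abl.2, and with library totals only (0.95, adjusted p = 0.0327 by edgeR). That scaling moved the median of all genes from 0.01 to 0.36.

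Of the list genes tested in the clones, 1 of 10 renin-angiotensin and kallikrein-kinin genes was higher in Abl.2 and 7 were lower, and of 6 peptidases 1 was higher and 4 were lower, where 21.6% of all genes were higher and 24.5% lower. Ctsg, the granule protease cathepsin G, had 14779 counts in Abl.1 (288 and 436 CPM) and 0 in Abl.2. Against a floor of 3 counts per library it was at least 2577-fold lower from the Abl.1 mean and 2047-fold from the lower Abl.1 library alone. Cpa3, a mast cell carboxypeptidase, had 56 counts in Abl.1 and 0 in Abl.2, at least 9.85-fold lower from the mean and 6.72-fold from the lower library. Pm20d1 had 84 counts in Abl.1 and 0 in Abl.2, at least 14.1-fold lower from the mean and 9.63-fold from the lower library. Ggt1 had 7 and 42 counts in the libraries of Abl.1 and 0 in Abl.2, at least 8.02-fold lower from their mean and at least 2.59-fold from the lower library alone. Atp6ap2, the renin receptor gene on the X chromosome, was 2.23-fold higher in Abl.2 and Dpp4 3.25-fold (adjusted p = 0.0133 and 0.00108 by edgeR). In AI, Thop1 moved by -1.28, Prcp by -1.69 and Dpp4 by -0.66 in log2 odds from Abl.1 to Abl.2 (edgeR adjusted p = 0.000853, 0.00723 and 0.0277), where 26.4% of all genes passed.

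As a description without a test, the gene most like each of the 8 in log2(CPM + 1) over the 18 kidney libraries was found by Pearson's r among 11978 genes. Libraries of an experiment share kit and input, and the split between the kits enters each r. Ren1 was most like Tmem159 and S100a16 (both r = 0.993), Klk1 like Fxyd2 and Ldhb (both 0.998), Anpep like Isoc2a (0.997) and Kcnj16 (0.996), Ace like Plau and Scly (both 0.993), Mme like Cdc42bpg (0.993) and Tbc1d22b (0.991), Enpep like Sh2b3 (0.987) and U2af2 (0.979), and Agtr1a like Pctp (0.983) and Pigt (0.974). Agt, which moved least between the kits, was most like Coq9 (0.930) and Nsfl1c (0.899). Among the 8 genes themselves Ren1 and Klk1 had an r of 0.981, and Ace, Agtr1a, Enpep, Mme and Anpep had 0.909 to 0.983 with each other.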

How the data were processed

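Total RNA of 1 mouse kidney and of 2 clonal B cell lines was sequenced after poly-A selection. The authors aligned reads with STAR 2.5.4a to parental pseudogenomes of GRCm38 and kept those that aligned uniquely. They assigned reads over SNPs to an allele, sampled them to equal numbers and summed counts over merged exons. Regions that belong to more than 1 gene were left out. The deposited values used here are these allelic counts per gene, not normalized. Reads over several SNPs were counted at each. Printed AI intervals are Wilson intervals on counts divided by the squared QCC. The deposited AI tables were not used. Levels (total allelic counts) were tested with edgeR 4.0.16 quasi-likelihood fits with TMM scaling on genes averaging at least 10 counts, and AI with allele by group terms plus library terms on genes with at least 10 counts in every library (R 4.3.3), with Benjamini-Hochberg adjustment over all genes. AI against 0.5 was tested with a two-sided proportional test on pooled counts divided by the squared QCC (Bonferroni, 0.05), for genes of 10 pooled counts or more. AI is printed from 50 pooled counts. Alternatives used DESeq2 1.42.0, limma 3.58.1 and exact permutation. The fits were tested on simulated data. Named were the 8 genes, of both gene lists the 2 genes called with the largest change per comparison and direction, and the 2 genes most like each of the 8. Library numbers are those of the sample titles, with which a replicate tag in the labels disagrees for some samples. Klk1b5 was named after its values were seen. The 8 genes and the lists were chosen with earlier results of these data known.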

Additional observations from a re-analysis of the deposited data

Results flagged for a closer look

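In the 48 groups of 6 kidney libraries (level and AI of 8 genes in 3 experiments), 6 held a library whose gap to its nearest neighbour was above Dixon's 95% critical value of 0.625 of the range of the group. Chance flags about 1 in 20 groups. Agt had 210.3 CPM in replicate 1 of Experiment 3 against 159 to 173 CPM in the other 5. Ace had an AI of 0.611 in replicate 4 of Experiment 3 against 0.501 to 0.534. Agtr1a had 101 CPM in replicate 2 of Experiment 1, where the others reached 110 to 114 CPM. For Mme the AI of replicate 1 of Experiment 1 was 0.644 against 0.550 to 0.584, and its level in replicate 1 of Experiment 2 was 47.5 CPM against 36.8 to 40.5 CPM. Klk1 had an AI of 0.588 in replicate 4 of Experiment 1 against 0.607 to 0.612.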

How the results depend on the processing

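Of the results for single genes of the 8, 860 kept direction and call under the alternatives, 17 gained a call, 8 lost one and 9 changed sign, and of the counts of calls 227 stayed within 1.5 times and 27 moved further. The causes were not tested. In the kit comparison the level of Agt was -0.0894 with library totals and -0.0892 on the log2 scale of mean CPM (exact permutation p = 0.0433). The AI of Enpep there was -0.00809 after thinning, and between -0.0692 and 0.0804 with single libraries left out. Between the inputs the AI of Ren1 was between -0.00168 and 0.10, and that of Klk1 between -0.0191 and 0.00921 with single libraries left out. AI calls over all genes were 691 by limma between the kits (1069 by edgeR), and 26 by limma and 28 with the replicate block between the inputs (66 by edgeR). Calls against 0.5 in Experiments 1, 2 and 3 were 4251, 4136 and 4817 without QCC correction, 4421, 5553 and 3207 with Benjamini-Hochberg and 3758, 4726 and 2627 with the edgeR allele term, against 2022, 2695 and 1442. In Experiment 2, 8 of the 8 genes passed under each of these 3 settings, against 5. In the clones 1 of the 8 genes was called by level with library totals, against 0. Leaving out single libraries gave 3543 to 8275 level calls between the clones, with 0 to 1 of the 8 genes, 30 to 66 AI calls between the inputs and 2 to 4 of the 8 genes against 0.5 in Experiment 3. Level calls between the kits were 4354 higher and 4355 lower with TMM, and 3277 and 5913 with library totals. Between the clones they were 2659 and 3015, and 3740 and 2228.

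By the numbers of the titles, which the replicate tag of the labels does not always match, same-numbered libraries share only a number, since their deviations correlated at -0.03 to 0.029 with 0 of 12 pairs above 0.1. With the replicate block 8648 level calls and 984 AI calls were made between the kits and 1870 and 28 between the inputs, and 5665 and 2492 between the clones. No call among the 8 genes changed. Mme, Anpep and Agtr1a had 1303 to 2017 pooled counts each at 100 pg, which limits the precision of their AI.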
